A study of Oryza sativa with 8 samples.

Results

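The genes described here lie on the short arms of rice chromosomes 4 and 10, taken as the listed genes of chromosome 4 that start before position 9700000 and those of chromosome 10 that start before 8200000. Genes were chosen by position alone, and rows sharing a gene name were summed. A total of 682 genes met the rule, 340 on chromosome 4 and 342 on chromosome 10, out of 30154 listed in the whole series. They were set beside the other 3533 genes of chromosomes 4 and 10, of which 2302 lie on chromosome 4 and 1231 on chromosome 10. Another 2 genes inside the boundaries were left out and are not analysed here.

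The series measured RNA in Oryza sativa, subspecies Indica, cultivar Pusa Basmati 1 (PB1), by directional RNA sequencing. The groups were wild-type (WT) anther, nrpd1 knockdown (nrpd1_kd) anther, WT pre-emerged panicle and nrpd1_kd pre-emerged panicle, and the anthers were taken before dehiscence. The labels list 2 replicates a group, but the authors deposited 1 value per gene and group, in FPKM (fragments mapped to a gene, scaled by transcript length and by the fragments mapped in the library). No difference below can therefore be set against a replicate spread, and none has a test or a standard deviation. The plants' age, the knockdown construct and the number of lines are not given in the sources used here.

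The short arms of chromosomes 4 and 10 are among the parts of the rice genome that stain as dense heterochromatin. Heterochromatin is rich in transposons and repeats, carries DNA methylation and is poor in transcribed genes. RNA polymerase IV, whose largest subunit is NRPD1, makes the precursors of the small RNAs that direct DNA methylation to such sequences in plants. The short arm of chromosome 4 is also known for genes of diterpenoid synthesis. The RefSeq gene table for another rice assembly (ASM3414082v1) lists CPS4 beside CYP99A3, and KSL4 beside CYP99A2, on chromosome 4. It ties none of these 4 symbols to a row of the deposited table, so no row is given their names. Of the 682 arm genes, 3 carry a symbol in the deposited table and the others carry identifiers only, so roles cannot be given for them.

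The 4 columns differed in composition. Summed FPKM ran from 341703 in knockdown anther to 636692 in WT anther, while the median gene lay between 1.501 and 1.85 FPKM. The depth is unknown, because FPKM values do not carry read numbers. Of the lists of genes searched by name, 1 of 20 genes of RNA-directed DNA methylation was found, none of 18 anther genes and 2 of 14 panicle genes (MADS14 and MOC1), and none of these 3 lies on the arms. Neither the knockdown nor the anther label was checked against its own genes for that reason. In such bulk samples, fewer cells of a type and less RNA per cell cannot be told apart.

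The arms held fewer listed genes per length of chromosome, and a larger share of them was near silent. The arms listed 38.1 genes per Mb over 17.9 Mb, against 86.6 per Mb over 40.8 Mb in the rest of chromosomes 4 and 10. Genes reaching 1 FPKM in some column numbered 20.9 per Mb on the arms and 58.7 per Mb in the rest. A gene was counted as silent when it stayed below 1 FPKM in all 4 columns. By that measure 308 of the 682 arm genes, or 45.2%, were silent, against 1140 of 3533 in the rest, or 32.3%, and 32.6% of all genes. Genes at 0 in every column do not occur in the table, so these shares refer to genes with some signal.

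The chromosome 4 arm was the emptier of the pair, with 35.1 genes per Mb and 165 of 340 genes silent (48.5%). On the chromosome 10 arm there were 41.7 genes per Mb and 143 of 342 were silent (41.8%). The rest of chromosome 4 had a silent share of 31.7%, and the rest of chromosome 10 one of 33.3%. Over the other 10 chromosomes, taken whole, the silent share ran from 29.7% on chromosome 3 to 40.4% on chromosome 11. Both arms thus lay above every other whole chromosome, though an arm and a whole chromosome are unlike units. Taken whole, chromosomes 4 and 10 stood at 33.9% and 35.2%, within the range of the others. With a limit of 0.5 FPKM the silent shares were 36.4% on the arms and 24.4% in the rest, and with a limit of 0.1 FPKM they were 19.4% and 9.77%.

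**Figure D1:**
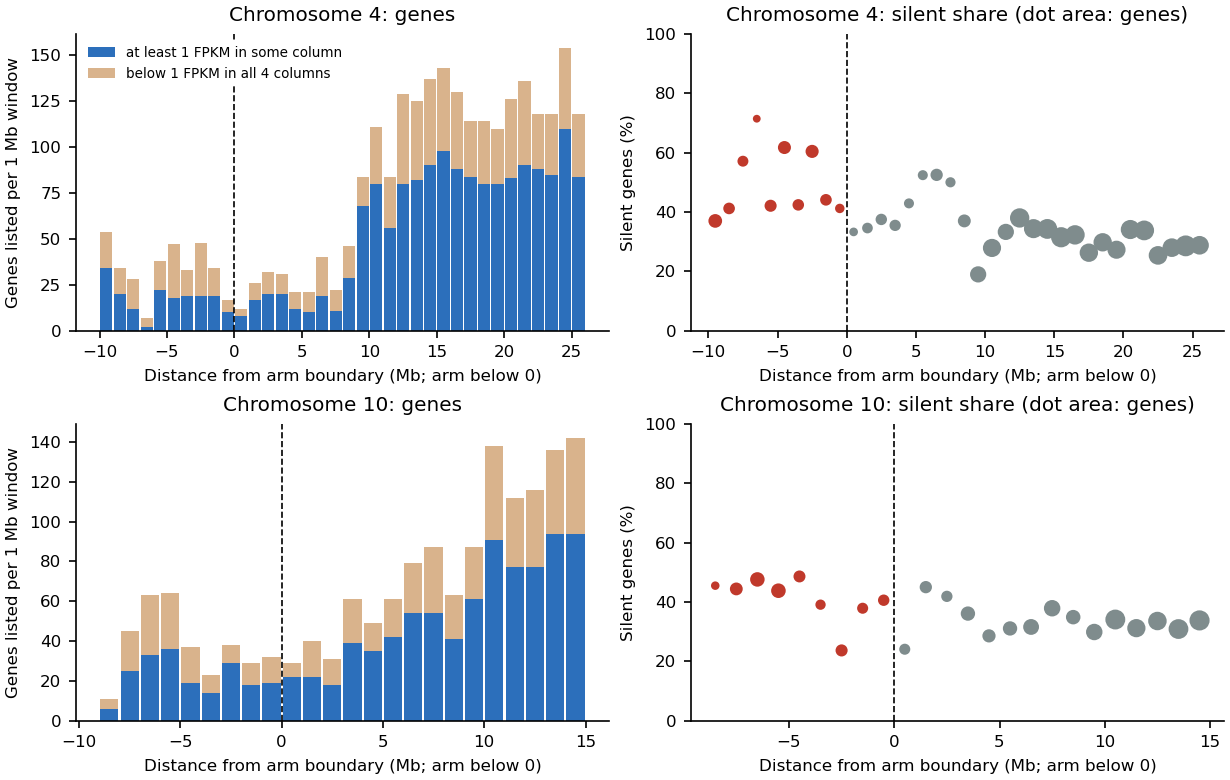
Genes listed per 1 Mb window, split into silent genes and genes reaching 1 FPKM in some column (left), and silent share of each window (right), by distance from the arm boundary in Mb, with the arm below 0 and the first and last windows cut by the chromosome ends. Full windows of the chromosome 4 arm hold at most 48 genes, and its cut first window holds 54. Gene numbers per window rise several Mb beyond the boundary rather than at it.

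The change along the chromosomes did not sit at the boundary and was uneven. Full 1 Mb windows of the chromosome 4 arm held 7 to 48 genes (median 34.0) and those of the rest 12 to 154 (median 111.0). On chromosome 10 the windows held 23 to 64 genes on the arm (median 37.5) and 29 to 138 in the rest (median 71.0). The first 2 Mb past the boundaries held 107 genes, of which 35.5% were silent, while genes more than 10 Mb past them were silent in 31.4% of cases. Between these zones the shares were 36.0% from 2 to 5 Mb and 34.1% from 5 to 10 Mb. High silent shares were not confined to the arms. On chromosome 4, 11 of 21, 21 of 40 and 11 of 22 genes were silent in the windows from 5 to 8 Mb past the boundary. Each of these shares exceeded the 48.5% of the chromosome 4 arm. The other windows past that boundary had 19.0% to 42.9%. Within the arms, the stretch of chromosome 4 from 5 to 2 Mb before the boundary had the highest silent share of the zones compared, with 72 of 128 genes (56.2%). The emptiest full window, 7 to 6 Mb before the boundary of chromosome 4, listed 7 genes, of which 5 were silent. Other parts of the arms were fuller or less silent. The first window of the chromosome 4 arm, cut by the chromosome end, listed 54 genes, of which 37.0% were silent. On the chromosome 10 arm, the window 3 to 2 Mb before the boundary listed 38 genes, of which 23.7% were silent.

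The genes on either side of the boundaries gave no single order of levels. On chromosome 4 the last gene inside, Os04g0250700 (9695110 to 9703565, build not stated), was listed at 0.0238 FPKM in knockdown anther and at 0 in the other columns. The first gene outside, Os04g0251825, had between 3.42 and 5.66 FPKM in all 4 columns. On chromosome 10 the last gene inside, Os10g0315400 (8193775 to 8201070), lay between 0.110 and 0.446 FPKM, but Os10g0315900 at the same locus had 29.7 (WT) and 27.5 FPKM (knockdown) in anther and 15.5 and 12.4 FPKM in panicle. The neighbour outside, Os10g0316400, lay between 3.51 and 4.87 FPKM, above the first of these names and below the second. The inside gene was thus the lower on chromosome 4, while on chromosome 10 the order depended on the name taken.

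Silent genes of the arms were also fainter than those elsewhere. Among the 308 silent arm genes, 65 (21.1%) had a value above 0 in 1 column only, against 163 of 1140 (14.3%) in the rest. The maximum over the columns stayed under 0.1 FPKM for 132 silent arm genes (42.9%) and for 345 silent genes of the rest (30.3%). The genomic span of a locus did not separate the sets, with a median of 4336 bases for the arms and 4398 bases for the rest. Names that share their locus with another name, whose reads are harder to divide, made up 39.1% of arm genes and 43.8% of the rest.

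The arms also gave lower values per column. Over all 682 arm genes the median was 0.405 (WT) and 0.433 FPKM (knockdown) in anther and was 0.694 and 0.476 FPKM in panicle. The rest of chromosomes 4 and 10 had medians of 1.45, 1.54, 1.94 and 1.79 FPKM in the same order. The arms were the lower set in every column. Among genes that were not silent, the arm median was 2.89 FPKM in WT anther, 54.1% of the 5.35 FPKM of the rest. In knockdown anther it was 63.4% of the rest, and in the WT and knockdown panicles 63.0% and 72.3%. With a mean of at least 5 FPKM required, which draws the medians of both sets together by construction, the arm median came to 87.5%, 78.6%, 105% and 104% of the rest in those columns.

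**Figure D2:**
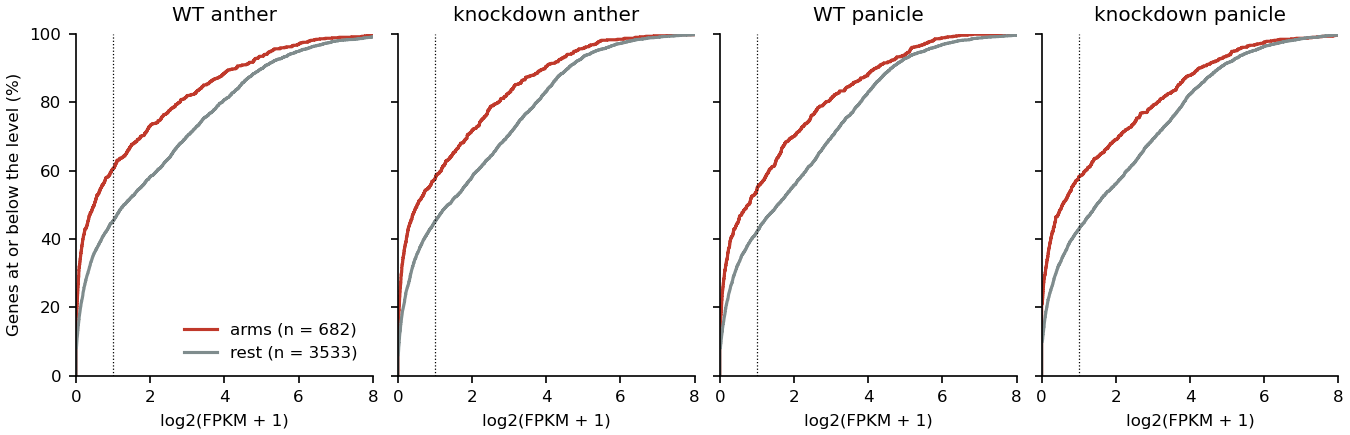
Cumulative share of genes by level, log2(FPKM + 1), in each of the 4 columns for the 682 arm genes and the 3533 other genes of chromosomes 4 and 10, with a dotted line at 1 FPKM. The arm curve lies above the other at low levels in each column (60.6% against 45.3% of genes below 1 FPKM in WT anther), and the curves approach each other at high levels.

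The arms held 2.26% of the listed genes. Their part of the summed FPKM was 1.04% in WT and 1.22% in knockdown anther, and 1.09% in WT and 1.55% in knockdown panicle. Single genes made up part of the higher share in knockdown panicle. Without Os04g0233400 and Os10g0147900, chosen after their values were seen, the arms' share of that column was 1.22%, still the highest beside 1.03% in WT anther, 1.11% in the knockdown and 1.06% in WT panicle. Os04g0233400 (chromosome 4, 8948226 to 8949943) was the most abundant arm gene there. It stood at 26.6 FPKM in WT and 12.9 in knockdown anther, with 101 and 715 FPKM in the matching panicles.

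A few arm genes were abundant throughout. Os10g0167300 (chromosome 10, 4639450 to 4644313) had the highest mean level and led the WT panicle column, at 463 FPKM in WT anther and 271 in the knockdown, and at 241 and 188 FPKM in the respective panicles. It was not called in either tissue, and the direction in anther turned with the scaling, from a log2 change of -0.77 as deposited to 0.51 with quantile normalization and 0.12 at equal totals. With Os10g0148700, Os04g0118500 and the row joining Os10g0184250,Os10g0184300, it was one of the 4 arm genes at 50 FPKM or more in every column, or 0.587% of arm genes. In the rest of the chromosomes 66 genes, or 1.87%, reached that level.

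The tissues were also compared within each genotype, taking genes with at least 1 FPKM in either column and calling a difference of at least 1 in log2(FPKM + 1). Of 344 compared arm genes, 68 were higher in anther (19.8%, beside 20.4% of all genes) and 76 were higher in panicle (22.1%, beside 18.1% of all genes called lower in anther). In the rest of chromosomes 4 and 10, 20.7% were higher in anther and 18.9% in panicle. In the knockdown, 52 of 339 arm genes were higher in anther (15.3%, beside 14.0% of all genes) and 86 were higher in panicle (25.4%, beside 22.5%). In the rest 15.2% were higher in knockdown anther and 23.9% in knockdown panicle, so the arms lay within 2 percentage points of it in both directions. These comparisons share columns with those of the knockdown and are given as values only.

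The 3 arm genes with symbols were not called in the knockdown of either tissue. TIC62 (chromosome 10, 45848 to 58448), a component of the protein import machinery of the chloroplast inner envelope, was a panicle gene, at 0.887 (WT) and 1.33 FPKM (knockdown) in anther and at 25.5 and 17.4 FPKM in panicle. PHR (chromosome 10, 4662967 to 4667285) is a photolyase gene in the RefSeq table; photolyases repair ultraviolet damage to DNA. It was at 8.57 FPKM in WT and 5.66 in knockdown anther, with 3.28 and 1.45 FPKM in the matching panicles. Its log2 changes were -0.52 in anther, which turned to 0.26 at equal totals, and -0.80 in panicle. UGT79 (chromosome 4, 7020705 to 7166358), a glycosyltransferase gene by its symbol, was silent, with 0.0138 FPKM in WT anther and 0 elsewhere. It shares its long locus with other names, so the division of reads there is uncertain.

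The knockdown was compared with WT in each tissue, which addresses whether lowering RNA polymerase IV goes with altered gene levels on heterochromatic arms. Each change was computed as log2(FPKM + 1) in the knockdown minus that in WT, a scale on which changes of faint genes come out too small. Genes were compared and called by the same limits as between tissues. In anther, 36 of 315 compared arm genes (11.4%) were higher in the knockdown, where 7.37% of all compared genes were called higher. Another 54 (17.1%) were lower, beside 17.6% of all genes. The rest of chromosomes 4 and 10 had 173 of 2087 genes higher (8.29%) and 348 lower (16.7%).

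The arm excess among higher genes in anther was thus a few percentage points, and the lower share was at the background. Median log2 changes were -0.06 on the arms, with quartiles of -0.75 and 0.48, -0.14 in the rest and -0.15 over all genes. Changes of at least 2 upward were seen for 11 arm genes (3.49%) and 30 genes of the rest (1.44%). By mean level over the columns, 11.8% of arm genes at 1 to 5 FPKM were higher, 11.9% at 5 to 20 FPKM and 8.2% above 20 FPKM. The rest had 8.63%, 8.89% and 6.45% in these classes. Which direction prevailed changed with how the columns were scaled. As deposited, 40.0% of the called arm genes were higher, but with every column scaled to the same total 100 were higher and 21 lower (82.6%), and the median over all genes moved from -0.15 to 0.62. With that scaling 30.9% of arm genes, 30.6% of the rest and 28.4% of all genes were higher, so the arms no longer stood above the rest. Other scalings kept a smaller or similar difference. With columns centred on their medians, 12.2% of arm genes and 9.88% of the rest were higher. With quantile normalization these shares were 12.5% and 11.2%.

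In panicle the arms were close to the background in both directions. Of 333 compared arm genes, 48 were higher in the knockdown (14.4%, beside 13.2% of all genes) and 39 were lower (11.7%, beside 10.7% of all genes). In the rest, 314 of 2221 genes were higher (14.1%) and 248 lower (11.2%). The median log2 change was -0.06 on the arms and -0.01 in the rest. Changes of at least 2 upward were seen for 18 arm genes (5.41%) and 109 genes of the rest (4.91%).

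**Figure D3:**
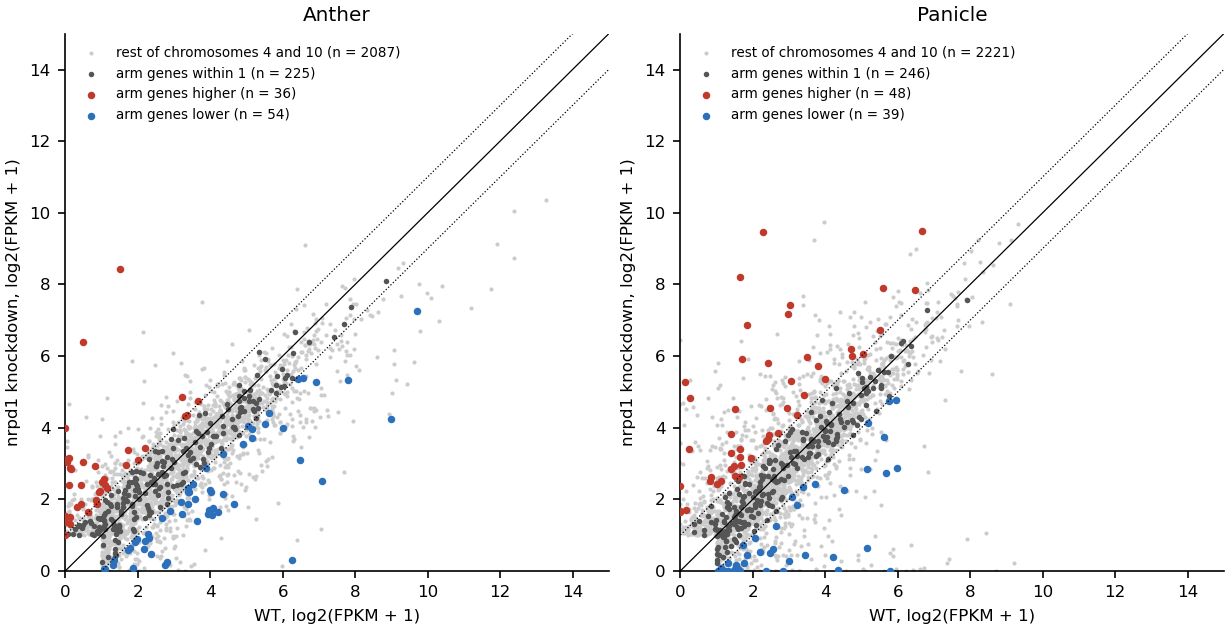
Level in the knockdown against level in WT, both as log2(FPKM + 1), in anther (left) and panicle (right), for compared genes of the arms and of the rest of chromosomes 4 and 10; dotted lines mark a log2 change of 1. In anther 36 arm genes lie above and 54 below the dotted lines, and in panicle 48 and 39. The grey points of the rest reach higher levels, up to 9840 FPKM in WT anther against 839 FPKM on the arms.

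Most arm genes below 1 FPKM in the WT column of a tissue stayed below 1 FPKM in its knockdown. In anther 46 of 413 reached 1 FPKM (11.1%, beside 10.5% of all such genes and 9.68% in the rest). In panicle 21 of 370 did (5.68%, beside 10.5% of all such genes and 11.8% in the rest). Of the 413 arm genes below 1 FPKM in WT anther, 23 were called higher and reached 1 FPKM in the knockdown (5.57%, beside 3.77% of all such genes and 3.62% in the rest). Reaching 5 FPKM from below 1 was seen for 9 of them (2.18%, with 0.75% in the rest). In panicle 9 of 370 arm genes reached 1 FPKM with a call (2.43%, beside 5.0% of all such genes and 5.18% in the rest). The anther share lay above the background with a call required and near it without. The panicle share lay below the background either way.

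Arm genes also went the other way. Of 269 arm genes with at least 1 FPKM in WT anther, 16 were called lower and ended under 1 FPKM (5.95%, beside 3.85% of all such genes). In panicle 26 of 312 did so (8.33%, beside 5.85% of all such genes). In the rest of the chromosomes these shares were 3.57% and 6.11%. Without the call, 26 arm genes ended under 1 FPKM in anther (9.67%, beside 8.41% of all such genes and 7.76% in the rest). In panicle 47 did (15.1%, beside 10.2% of all such genes and 9.87% in the rest). The number of arm genes below 1 FPKM went from 413 to 393 in anther and from 370 to 396 in panicle.

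The anther and panicle comparisons share no column. On the arms 11 genes were higher in the knockdown in both tissues, or 2.94% of those compared in either tissue. The share was 1.65% of all genes and 2.13% of the rest of chromosomes 4 and 10. The 11 genes were 30.6% of the arm genes higher in anther and 22.9% of those higher in panicle, and 9 of the 11 lie on chromosome 10. By arm, the share higher in both was 4.52% on chromosome 10 (1.46% in its rest). Neighbouring names were counted singly there, and 3 of the 9 form 1 run at 2 loci, described further on. On chromosome 4 it was 1.14% (2.48% in its rest). Another 17 were lower in both tissues (4.55%, beside 4.98% of all genes and 5.14% of the rest). They were 31.5% of the genes lower in anther and 43.6% of those lower in panicle. Opposite calls were few: 2 genes were higher in anther and lower in panicle (0.535%, beside 0.635% of all genes), and 1 gene was the reverse (0.267%, beside 0.915% of all genes).

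Outside the runs described further on, the genes higher in both tissues reached moderate levels. Os10g0109300 had 0.1003 (WT) and 1.82 FPKM (knockdown) in anther and 2.23 and 58.8 FPKM in panicle. Os10g0200700 had 0.336 (WT) and 4.28 FPKM (knockdown) in anther and 4.32 and 55.4 FPKM in panicle. Os10g0137300 went from 0.0725 FPKM in WT to 7.91 in knockdown anther, and from 9.58 to 28.8 FPKM between the panicles. In these 3 genes panicle was above anther in either genotype. The same held for Os10g0132300, at 2.32 (WT) and 9.32 FPKM (knockdown) in anther and at 25.3 and 71.7 FPKM in panicle. Os10g0155200 was the other way round, at 3.63 (WT) and 9.86 FPKM (knockdown) in anther and at 1.19 and 4.68 FPKM in panicle. On chromosome 4, Os04g0167851 went from 0.769 FPKM in WT to 6.67 in knockdown anther, and from 4.51 to 22.5 FPKM between the panicles, and Os04g0229100 from 8.34 FPKM in WT to 27.9 in knockdown anther, and from 1.65 to 13.2 FPKM between the panicles. These 2 are the chromosome 4 genes among the 11, and they differ in the tissue where they were more abundant. All genes named here were chosen after their values were seen.

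Of the genes lower in both tissues, some were abundant in WT anther. Os10g0193500 went from 87.3 to 7.55 FPKM in anther and from 6.17 FPKM to 0 in panicle. Os10g0163340 went from 220.3 FPKM in WT to 39.4 in knockdown anther, and from 19.3 to 0.0249 FPKM between the panicles. For both, the WT panicle level was far below that of WT anther. Os10g0118100 was the other way round, from 15.98 FPKM in WT to 2.39 in knockdown anther, and from 60.4 to 26.4 FPKM between the panicles. These 3 genes were also chosen after their values were seen.

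The arms of the chromosomes were also counted apart. In anther 17 of 143 compared genes of the chromosome 4 arm were higher and 21 lower, and 19 of 172 genes of the chromosome 10 arm were higher and 33 lower. These were 11.9% and 14.7% on the chromosome 4 arm (8.67% and 17.8% in the rest of that chromosome) and 11.0% and 19.2% on the chromosome 10 arm (7.55% and 14.5% in its rest), beside 7.37% and 17.6% of all genes. In panicle the numbers were 21 and 21 of 154 on chromosome 4 (13.6% each, with 14.4% and 11.3% in the rest), and 27 and 18 of 179 on chromosome 10 (15.1% and 10.1%, with 13.7% and 11.0% in the rest), beside 13.2% and 10.7% of all genes. Whether these splits differ between the arms was not tested.

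The largest increases on the arms included runs of neighbouring genes. Beyond the longest run of each tissue, the runs described here were chosen after their values were seen. Taking compared genes in chromosome order, 7 of the 36 higher genes in anther lay in 2 runs of at least 3 neighbours called the same way, as did 11 of the 54 lower genes, in 3 runs. In panicle 7 of 48 higher genes lay in 2 such runs and 5 of 39 lower genes in 1 run. Such runs held 19.4% of the arm genes higher in anther (3.47% in the rest, 5.97% over all genes) and 20.4% of those lower (11.8% and 14.7%). In panicle they held 14.6% of the higher genes (10.2% and 7.85%) and 12.8% of the lower genes (12.5% and 9.39%). Each of these arm counts comes from 1 to 3 runs and is a description. Without a neighbour called the same way were 23 of the 36 higher genes in anther (63.9%, with 75.7% in the rest and 76.6% over all genes). In panicle these were 35 of the 48 higher genes (72.9%, with 67.5% and 65.4%).

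**Figure D4:**
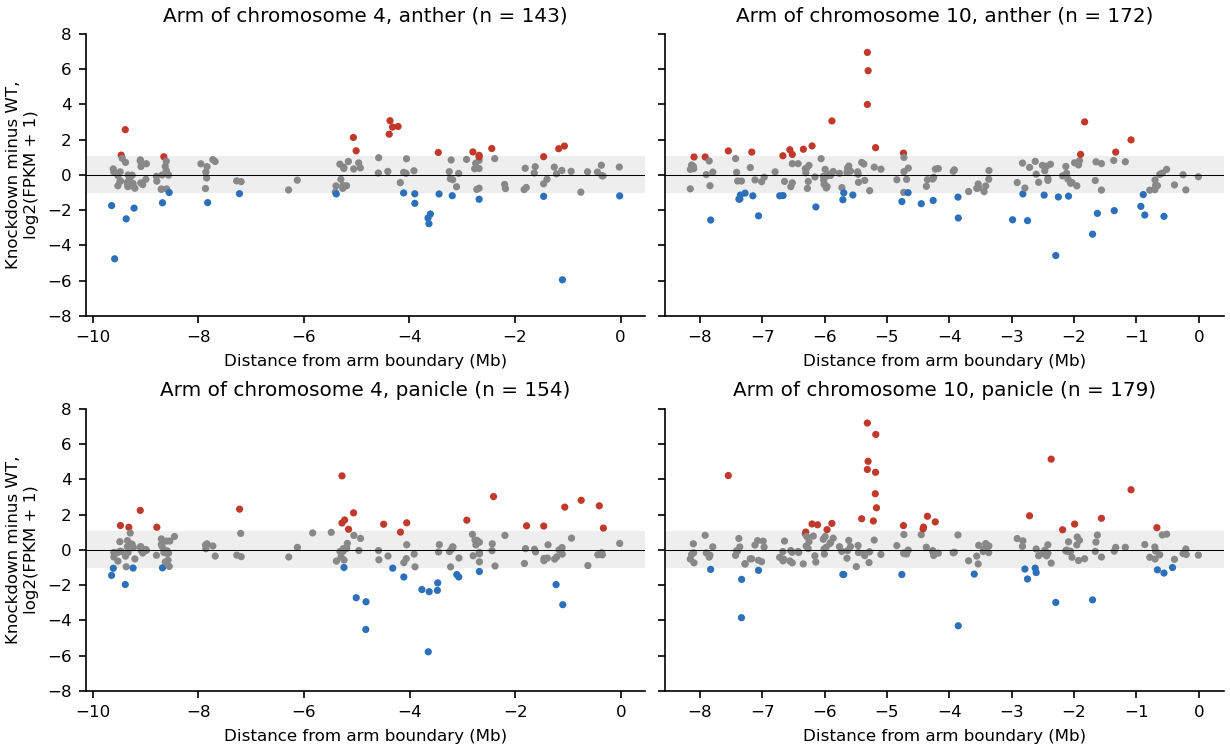
Knockdown minus WT, as a difference of log2(FPKM + 1), by distance from the arm boundary in Mb for the compared genes of each arm and tissue; the grey band spans changes under 1 in size, red points are genes called higher and blue points genes called lower. The highest points in each tissue, at 6.94 in anther and 7.19 in panicle, belong to 1 gene of the chromosome 10 arm that stands in a narrow column of raised neighbours more than 5 Mb from the boundary.

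The run with the largest increases lay on chromosome 10 from 2885293 to 2899101 and was shared by both tissues. Os10g0147900 (2885293 to 2889781) had 1.83 FPKM in WT anther and 346 in the knockdown, and 3.84 and 705 FPKM in the respective panicles. Both knockdown columns were far above both WT columns, with log2 changes of 6.94 and 7.19. Its neighbour Os10g0148100 (2897592 to 2899101) was at 0.392, 82.3, 2.58 and 115 FPKM in the same order, with log2 changes of 5.90 and 5.02. Between them Os10g0148000, which has the same locus as Os10g0147900, was at 0 (WT) and 14.9 FPKM (knockdown) in anther and at 0.212 and 27.5 FPKM in panicle. No other gene is listed in this stretch, so all 3 of its genes were higher in both tissues.

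The increase of Os10g0147900 came from 1 of its 2 rows. That row was at 0.246 FPKM in WT and 344 in knockdown anther, with 0.674 and 701 FPKM in the matching panicles. The other row, at the same locus, had 1.58 FPKM in WT anther and 2.35 in the knockdown, and 3.17 and 4.73 FPKM in the respective panicles. The table gives no transcript structure, so which transcript each row stands for is not known, and at a locus shared with Os10g0148000 the division of reads between names is uncertain.

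About 0.1 Mb further along, a run of 4 genes was higher in knockdown panicle (chromosome 10, 3012859 to 3032661). Os10g0150700 (3020704 to 3022087) was listed at 0 (WT) and 0.859 FPKM (knockdown) in anther and at 2.14 and 292 FPKM in panicle, a log2 change of 6.54 in panicle. Os10g0150600 was at 0, 1.91, 7.20 and 171 FPKM in that order, with log2 changes of 1.54 in anther and 4.40 in panicle. The outer members, Os10g0150400 and Os10g0150800, reached 9.61 and 4.21 FPKM in knockdown panicle and stayed under 0.3 FPKM in the other columns. All 4 were highest in knockdown panicle and faint in anther.

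In anther, a run of 4 genes on chromosome 4 (5318069 to 5486764) was higher in the knockdown from near 0. Os04g0178400 was at 0.0347 FPKM in WT and 7.68 in knockdown anther, with 0.230 and 0 FPKM in the matching panicles. Os04g0180500 was at 0.0952, 6.31, 0.337 and 0.0416 FPKM in that order, and Os04g0178300 was at 0.0750, 4.31, 0.0327 and 0 FPKM. The row joining Os04g0179100,Os04g0179200 was at 0.104, 6.20, 1.06 and 0 FPKM. The 4 log2 changes in anther lay between 2.30 and 3.07, and knockdown anther was the only column in which any of the 4 passed 1.1 FPKM. The stretch lists 9 genes in all, and the other 5 were silent.

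The longest runs of lower genes lay close to each other on chromosome 4. In anther the run had 5 names at 4 loci, from Os04g0185500 to Os04g0190000 (5802035 to 6101017). The stretch lists 9 genes in all, of which 3 were silent, so the members are neighbours among compared genes only. Os04g0185500 went from 2.91 to 0.854 FPKM in anther, and the row joining Os04g0185500,Os04g0185600 at the same locus from 118.8 to 38 FPKM. At the other end, Os04g0190000 went from 11.4 to 1.65 FPKM. The joined row lost its call with quantile normalization (-0.92) and at equal totals (-0.74), where Os04g0185500 also lost it (-0.53), so the run was then shorter. Os04g0189400 (6052547 to 6054979), the most abundant arm gene of WT anther, was at 839 FPKM there and at 152 in the knockdown, and in panicle at 54.2 FPKM in WT and 0 in the knockdown. Its log2 changes were -2.45 in anther and -5.79 in panicle, the largest fall on the arms in panicle. Os04g0189800 had 24.0 FPKM in WT anther and 2.66 in the knockdown, and 4.19 and 0 FPKM in the respective panicles. Both genes were highest in WT anther and lower in the knockdown of each tissue.

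The panicle run of 5 lower genes overlapped this stretch and ended at Os04g0191500 (5931173 to 6232472). Of the 7 genes listed there, 1 was silent, and Os04g0190000 stayed under 1 FPKM in both panicle columns. Besides Os04g0189400 and Os04g0189800, the members of the run were panicle genes. Os04g0191500 was at 0 (WT) and 0.157 FPKM (knockdown) in anther and at 47.8 and 12.3 FPKM in panicle, a log2 change of -1.88. Os04g0191400 and Os04g0188433 were listed at 0 in both anther columns and went from 34.3 to 6.15 FPKM and from 21.9 to 3.81 FPKM in panicle. These 3 genes had almost no signal in anther.

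**Figure D5:**
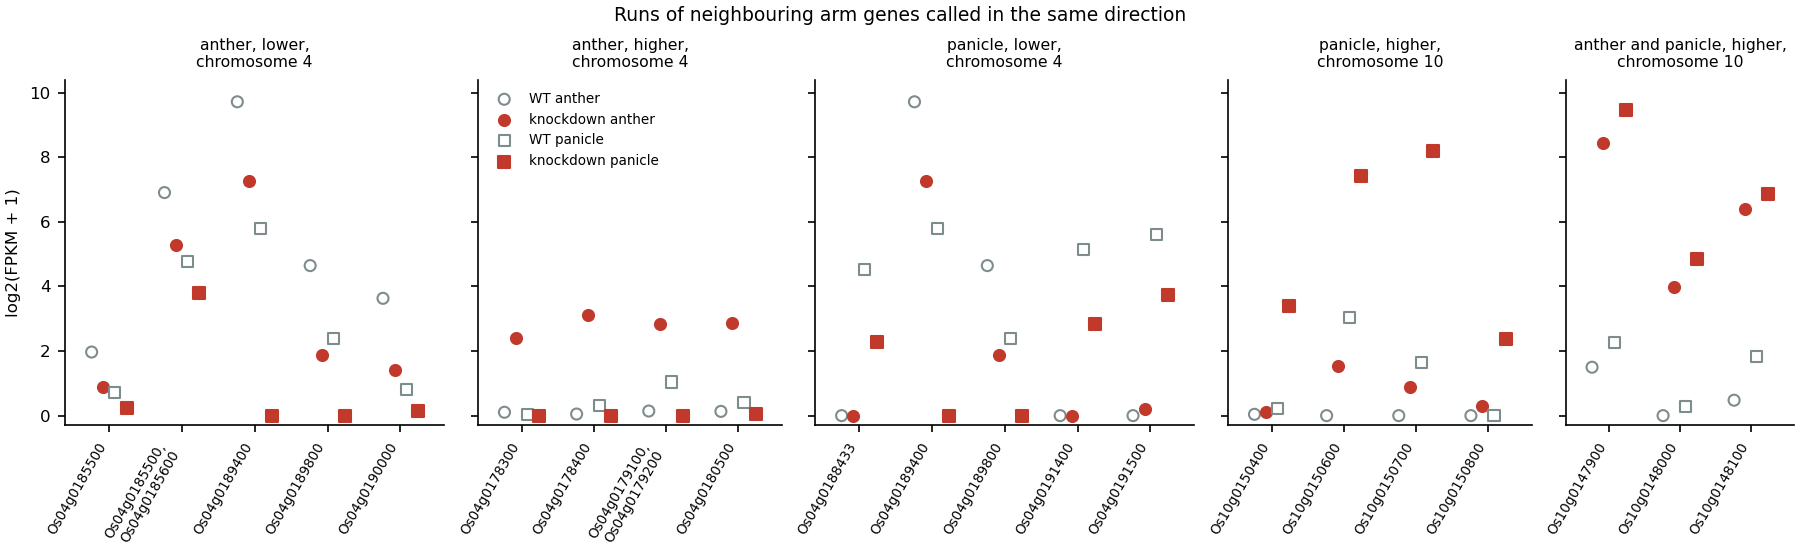
Level, as log2(FPKM + 1), in WT (open) and knockdown (filled) anther (circles) and panicle (squares) for the members of the runs of at least 4 neighbouring genes called the same way and of the run of 3 that is higher in both tissues. In the run on the right all 3 genes have both filled symbols above both open ones, while the 4 genes higher in anther on chromosome 4 lie at or below 1.06 FPKM in the other 3 columns.

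Among single genes, the largest fall in anther was that of Os04g0228400 (chromosome 4, 8598998 to 8600309), at 75.4 FPKM in WT and 0.231 in knockdown anther, with 62.2 and 6.29 FPKM in the matching panicles. Both knockdown columns were below both WT columns, with log2 changes of -5.96 and -3.11. Os04g0101700 (chromosome 4, 115619 to 119811) was an anther gene, at 510 FPKM in WT anther and 17.8 in the knockdown, and at 0.447 and 0 FPKM in the respective panicles, with a log2 change of -4.76 in anther. Os10g0186200 (chromosome 10, 5907311 to 5909066) was lower in both tissues, at 135, 4.70, 9.76 and 0.359 FPKM in the same order, with log2 changes of -4.58 and -2.99. Os04g0171600 (chromosome 4, 4869931 to 4872151), the second largest fall in panicle, was listed at 0 in both anther columns and went from 34.8 FPKM in WT panicle to 0.562 in knockdown panicle, a log2 change of -4.52.

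Some panicle falls went with a level of WT panicle that resembled a fixed share of WT anther. Over all chromosomes, 180 genes reached 200 FPKM in WT anther while exceeding their knockdown panicle value at least 100 times, and their median level in WT panicle was 7.33% of WT anther. Only 3 of these genes lie on the arms. Among these 3, WT panicle stood at 6.45% of WT anther for Os04g0189400, at 8.78% for Os10g0163340 and at 0.0876% for Os04g0101700. The last of these lay far below the median, so the 3 genes had no common share. For Os10g0186200, which did not reach 200 FPKM in WT anther, it stood at 7.22%. Of the 39 arm genes lower in knockdown panicle, 5 had a WT panicle level at or below 7.33% of WT anther, and with that share subtracted 28 arm genes were lower and 50 higher. These were 8.86% and 15.8% of the compared arm genes, beside 7.28% and 16.3% of all genes and 7.32% and 17.8% of the rest. The fall of Os04g0189400 then went to 0, as did that of Os10g0193500, and the value of Os10g0186200 to 0.44, while Os04g0228400 stayed at -2.98 and Os04g0171600 at -4.52. Subtraction removes the fall of any gene whose WT panicle level is at or below that share. The losses for these 3 genes were therefore fixed in advance, and no conclusion is drawn from them. Os04g0189400 was also among the genes that gave the share. The part of anther RNA in these panicle values was not tested.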

How the data were processed

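The authors deposited 1 table of FPKM values with a column per group, per the file headers, and directional libraries were made from total RNA, per the labels' protocols. Trimmomatic, HISAT2 and Cufflinks 2.2.1 are named in the submitters' processing notes. The genome build, the annotation, any scaling between libraries and the way replicates were combined are not given in the sources used here.

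Rows sharing a name were summed, and each gene was placed by the start of its locus. Changes are differences of log2(FPKM + 1). A limma fit was planned for replicate columns; with 1 value per group it could not be fitted, so no p-value is given. The calling step was run on simulated data with little noise, and large changes were put only into genes of at least 5 FPKM. That run says nothing about calls of faint genes, real noise or scaling. Named genes were the 2 largest rises and falls in each tissue, the 2 called the same way in both tissues with the largest smaller change, the most abundant genes, the genes nearest the boundaries, genes with symbols and the ends of the longest runs. Other genes were named after their values were seen. The members, lists and thresholds were chosen with earlier results of these data known. Of the arm gene names, 1 (PHR) was found in the RefSeq gene table. Calculations used Python 3.11.15, numpy 2.4.6 and pandas 2.3.3, and plots matplotlib 3.10.9.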

Additional observations from a re-analysis of the deposited data

Results flagged for a closer look

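The following 3 genes of the chromosome 4 arm are listed because the knockdown went with opposite calls in the tissues. Each group has 1 value, so the differences between tissues were not tested. They are the only arm genes of the 374 compared with opposite calls, a share given above beside that of all genes.

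Os04g0104900 was at 0.400 (WT) and 7.26 FPKM (knockdown) in anther and at 4.93 and 0.513 FPKM in panicle, and its anther change exceeded its panicle change by 4.53 on the log2 scale. The row joining Os04g0179100,Os04g0179200 was at 0.104, 6.20, 1.06 and 0 FPKM in that order, a difference of 3.75. Its panicle change of -1.04 is close to the threshold and was -0.94 with quantile normalization. Os04g0137100 was at 84.3, 39.7, 47.3 and 238 FPKM, a difference of -3.37. Its anther change of -1.07 was -0.95 when columns were centred on their medians, -0.39 after quantile normalization and -0.19 at equal totals, so its opposite call was lost under these scalings.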

How the results depend on the processing

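No paired analysis was possible because each group is a single column of FPKM without replicates; leaving out single replicates was not run for the same reason. Of 111 recomputed values, 83 stayed within 1.5 times a count, 0.1 of a median log2 change, 10 percentage points of a level ratio or the 95% Wilson interval of the silent share, and 28 did not. Without a filter on low values the counts of called genes cannot change, so their equality shows no stability.

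A pseudocount of 0.1 gave 55 arm genes higher in anther (17.5%, beside 12.9% of all genes and 13.7% of the rest). A mean of at least 5 FPKM, which leaves fewer genes, gave 17 higher and 29 lower in anther and 28 higher and 21 lower in panicle, with a median change of -0.29 in anther. These are 10.5%, 17.9%, 16.2% and 12.1% of the arm genes, beside 6.64%, 19.6%, 12.5% and 11.9% of all genes. A log2 threshold of 2 left 11 and 17 in anther and 18 and 12 in panicle, which are 3.49%, 5.4%, 5.41% and 3.6%, beside 1.37%, 5.25%, 4.17% and 3.7% of all genes. Equal totals gave 100 higher and 21 lower in anther (30.9% and 6.48%, beside 28.4% and 7.17% of all genes), with median changes of 0.66 in anther and -0.20 in panicle. The anther median was 0.052 with median centring and 0.14 with quantile normalization, and the panicle median was 0.10 with the anther share subtracted, which can only raise it.

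The silent share of the arms was 56.4% with each row as deposited (46.7% in the rest), 36.4% below 0.5 FPKM and 19.4% below 0.1 FPKM. Without the filter the arm median was 27.9%, 28.1%, 35.7% and 26.6% of the rest in WT anther, knockdown anther, WT panicle and knockdown panicle. With a mean of at least 5 FPKM it was 87.5%, 78.6%, 105% and 104%. Moving the boundaries by 1 Mb either way changed none of these results beyond those limits. The cause of the shifts with scaling was not tested. Unknown depth limits every value near 0.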

Other observations

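Abundant arm genes weighed differently on the columns. The 5 most abundant arm genes made up 34.3% of the arms' summed FPKM in WT and 25.3% in knockdown anther, and 14.9% and 32.8% in the matching panicles. At least 100 FPKM was reached by 10 arm genes in WT and 6 in knockdown anther, and by 3 and 11 in the matching panicles. Another 2 runs of 3 lower genes in knockdown anther lay on chromosome 10, each in a stretch that lists 4 genes, 1 of them silent. In that from 824834 to 850381, Os10g0112600 was at 28.9 (WT) and 10.5 FPKM (knockdown) in anther and at 6.01 and 6.84 FPKM in panicle. In that from 7271351 to 7338877, Os10g0203000 was at 14.7, 2.23, 4.85 and 6.18 FPKM in that order. Neither gene was called in panicle. At equal totals neither run of 3 was left: all 3 genes of the first lost their call (Os10g0112100 -0.81, Os10g0112600 -0.52 and Os10g0112700 -0.68), and so did Os10g0202900 of the second (-0.59).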
